A study of Mus musculus with 8 samples.

Results

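The genes described here encode the core of the major histocompatibility complex (MHC) class II presentation pathway, measured in whole liver of mice with and without an activating allele of Rragc. The members are H2-Aa, H2-Ab1, H2-Eb1, H2-DMa, H2-DMb1, Cd74 and Ciita, taken by an exact match of the gene name. All 7 were among the 14506 genes listed, and all 7 passed the filter of a mean of at least 10 normalized counts over the livers, which left 11174 genes for testing. The study put an S74N substitution into the endogenous Rragc gene, so that heterozygous animals carry the mutant RagC protein in every cell; RagC is a GTPase that recruits mTORC1, the nutrient-sensing growth kinase, to the lysosome. Livers of 4 Rragc+/+ mice and 4 Rragc S74N/+ mice were compared by 3′ end RNA sequencing. The Rragc+/+ mice were 3 months old, except replicate 4 at 2.5 months. In the Rragc S74N/+ group replicates 1 and 2 were 3 months old, replicate 3 was 2.5 months old and replicate 4 was 2 months old, so age and genotype were not fully balanced. The labels give no treatment, and the mutation was not restricted to any liver cell type.

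MHC class II molecules are heterodimers of an α and a β chain that carry peptides from endocytosed material to the surface of antigen-presenting cells, where CD4+ T cells read them. The invariant chain Cd74 fills the groove until the complex reaches the endosome, and the H2-DM heterodimer then exchanges its last fragment for peptide. Ciita is the coactivator that switches these genes on, through DNA-bound RFX and NF-Y proteins at their promoters. In liver the pathway is known from dendritic cells, B cells, Kupffer cells and other macrophages, among other cells, rather than from hepatocytes.

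Promoter stretches of the kind that RFX and NF-Y are known to use are shown for H2-Aa and H2-Eb1, as a description. RefSeq promoter windows, from 250 bases before to 50 bases after a start on GRCm38.p6, were matched for 4 of the 7 members. They were searched on both strands for GNAACT followed after 20 to 30 bases by ATTGG, letters that were chosen after the windows had been read. Capitals mark these letters, and each stretch is written 5′ to 3′ on the strand of its gene. H2-Aa is read from chr17:34287861-34287910 on the minus strand, and GENCODE placed no transcript over it. H2-Eb1 is read from chr17:34305770-34305818 on the plus strand, outside any exon but within the antisense gene Gm20513. H2-Eb2, a further β chain gene that is not a member, is added for comparison from chr17:34325537-34325585 on the plus strand.
H2-Aa: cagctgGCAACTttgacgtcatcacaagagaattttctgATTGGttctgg
H2-Eb1: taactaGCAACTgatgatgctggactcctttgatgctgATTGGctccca
H2-Eb2: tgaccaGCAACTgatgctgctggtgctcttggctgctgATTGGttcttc

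The paired letters were separated by 27 bases in H2-Aa and by 26 bases in H2-Eb1 and H2-Eb2. In H2-Aa they began 81 and 48 bases before the start, and in H2-Eb1 91 and 59 bases before it. H2-DMb1 also held them, 27 bases apart, in a stretch that GENCODE places in an untranslated region of H2-DMb1 itself. Neither of the 2 windows of H2-DMa did. Those windows, chr17:34122582-34122881 and chr17:34125268-34125567, lie inside the GENCODE span of H2-DMa, so they are not placed alike. The combination occurred in 184 of all 32851 windows, or 0.56%, while GNAACT alone was in 42.8% and ATTGG alone in 37.4%. Because the letters were chosen after the windows had been read, this share is no test of enrichment among the members. A match describes letters in a window and does not show binding.

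The livers held 4313076 to 6632108 reads each, as recovered from the deposited values. Each replicate is a separate mouse by its label. Reads carried no molecular identifiers, so their number bears on counting error only. Levels are given as normalized counts, which are reads divided by a size factor of the library. The 3′ end method gives about 1 read per transcript sampled whatever its length, so length bears little on setting levels of different genes side by side. Other differences between genes in how their reads were counted were not tested, so an order of levels is an order of normalized counts. Where 4 values are given for a genotype, they follow the order of its replicates from 1 to 4. Hepatocyte markers summed to 252761 to 455859 normalized counts per liver, and the level of Rragc itself was 84.1 ± 20.4 in Rragc+/+ and 76.6 ± 7.32 in Rragc S74N/+ livers (mean ± SD, n = 4 each; limma adjusted p = 0.931). A substitution need not change the level of its mRNA, so this does not check the genotype labels.

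None of the 7 genes passed the test between genotypes after adjustment over all genes tested. In the main comparison 3 had a higher mean log2 level in Rragc S74N/+ livers and 4 a lower one, while 51.3% of all genes tested were higher. The log2 fold changes ran from -0.56 for H2-DMa to 0.34 for H2-Aa. Their median log2 fold change was -0.07, beside 0.01 over all 11174 genes. By limma, 0 of 7 passed an adjusted p of 0.05 and 0 of 7 an unadjusted p of 0.05, and edgeR and DESeq2 on the recovered reads gave the same counts of 0. Over all tested genes limma called 1 gene at the adjusted threshold (0.00895%) and 578 at the unadjusted one (5.17%), of which those lower in Rragc S74N/+ livers made up 2.8% and those higher 2.37% of the genes tested. The edgeR test called 0.00895% adjusted and 5.53% unadjusted, and DESeq2 0.0895% and 6.04%. The 4 values of each genotype did not overlap for 1 of the 7 members, H2-DMa, beside 2.94% of all genes, 1.64% lower and 1.3% higher in Rragc S74N/+ livers. Each member has its own 95% interval on the log2 scale. The narrowest was that of H2-Ab1, -0.78 to 0.16, and the widest that of Ciita, -1.10 to 0.97. Changes inside the interval of a gene remain compatible with its values from 4 livers per genotype. Fewer cells of a type and less RNA per cell cannot be told apart in these whole-liver samples.

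**Figure D1:**
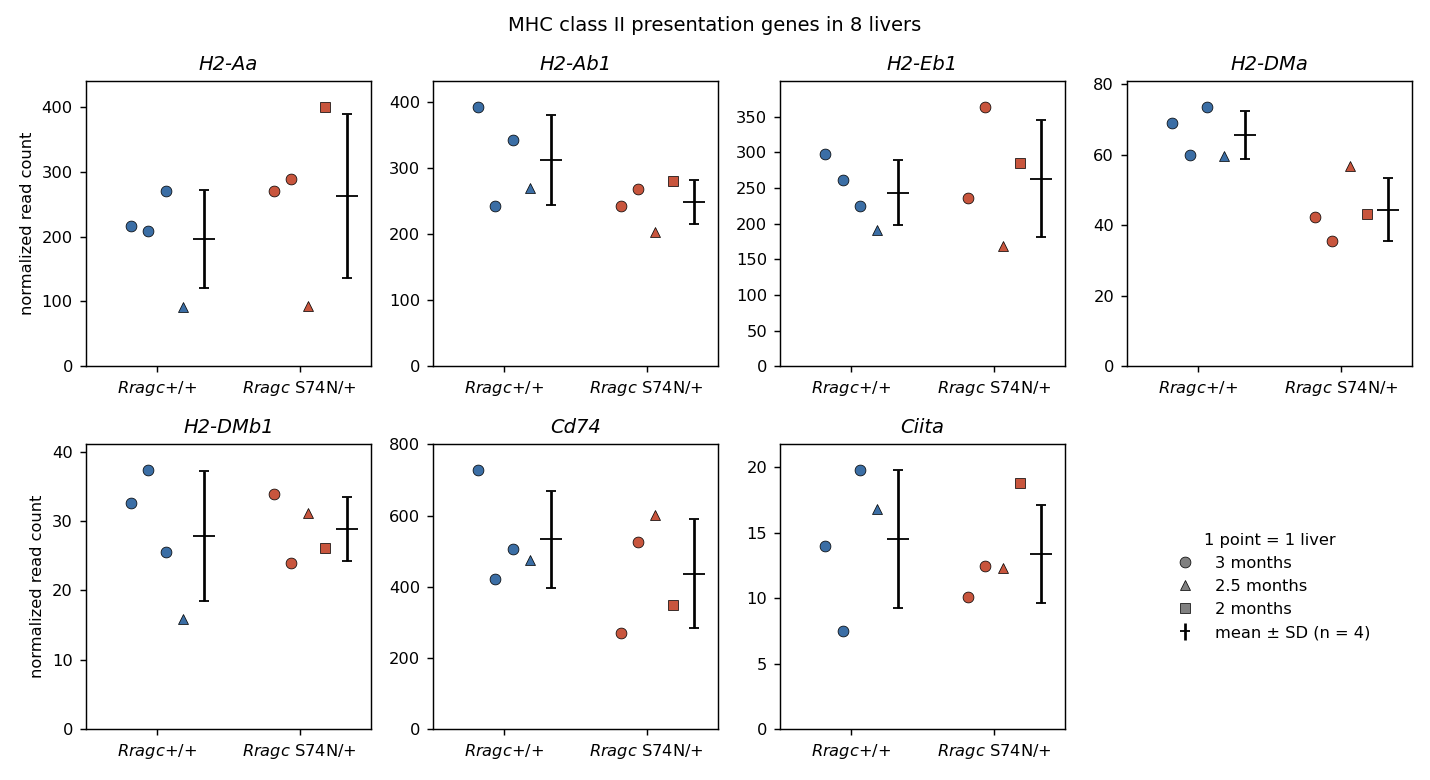
Normalized counts of each member in the 4 Rragc+/+ and 4 Rragc S74N/+ livers, 1 panel per gene with an axis starting at 0. Points are single livers and bars the mean with SD; H2-DMa is the gene whose groups do not overlap, with 59.8 to 73.6 in Rragc+/+ against 35.6 to 56.8 in Rragc S74N/+.

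Cd74, the invariant chain, had the highest mean normalized count of the members. It stood above H2-Ab1 in 8 of 8 livers and above all 3 classical chains in 6 of 8. H2-Ab1, H2-Eb1 and H2-Aa followed, with means over all livers of 280.3, 253 and 229.7 normalized counts. These 3 neighbours overlapped in range: H2-Ab1 exceeded H2-Eb1 in 5 of 8 livers, and H2-Eb1 exceeded H2-Aa in 5 of 8. H2-DMa was below Cd74 and all 3 chains in 8 of 8 livers and above its partner H2-DMb1 in 8 of 8. Ciita was lowest by its mean and lay below H2-DMb1 in 7 of 8 livers. Summed over the 7 genes, the level was 1392 ± 278 in Rragc+/+ and 1298 ± 194 in Rragc S74N/+ livers (n = 4 each), with ranges of 1119 to 1751 and 1105 to 1517 that overlapped.

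H2-Aa encodes the α chain of the H2-A molecule (chr17:34282744-34287823, minus strand, GRCm38). It was counted at 216, 209, 270.2 and 91.6 in Rragc+/+ and at 269.9, 288, 93.6 and 399.7 in Rragc S74N/+. The low liver of each genotype was its 2.5-month-old mouse, and the groups overlapped. The means were 197 ± 75.2 and 263 ± 127, with a log2 fold change of 0.34 (SE 0.43, 95% interval -0.58 to 1.27; limma adjusted p = 0.874; two-sided exact permutation p = 0.486). The size of this difference depended on single livers. Its log2 fold change was 0.014 without Rragc+/+ replicate 4 and 0.084 without Rragc S74N/+ replicate 4, but 0.53 without Rragc+/+ replicate 3 and 0.78 without Rragc S74N/+ replicate 3, the last with an unadjusted limma p of 0.0345.

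H2-Ab1, the β chain of the same molecule (chr17:34257689-34269419, plus strand), varied less between livers. Its levels were 392, 242, 342 and 270.0 in Rragc+/+ and 243, 268, 204 and 279.8 in Rragc S74N/+. A pair of Rragc+/+ livers stood above every Rragc S74N/+ liver, and the others were intermixed. The means were 312 ± 68.4 and 249 ± 33.6 (log2 fold change -0.31, SE 0.22, 95% interval -0.78 to 0.16; limma adjusted p = 0.846; exact permutation p = 0.200). Without Rragc+/+ replicate 1, the highest liver, the log2 fold change was -0.19.

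H2-Eb1 encodes the β chain of H2-E (chr17:34305867-34316674, plus strand), whose α partner gene H2-Ea is known to be defective in C57BL/6 mice, the strain of this study. It gave 297, 261, 225 and 191 in Rragc+/+ and 236, 363, 168 and 285 in Rragc S74N/+. The 2.5-month-old mouse was again the lowest of each genotype. The means of 243 ± 46.0 and 263 ± 82.2 differed by a log2 fold change of 0.08 (SE 0.26, 95% interval -0.48 to 0.63; limma adjusted p = 0.958; exact permutation p = 0.800). The antisense gene Gm20513 overlaps H2-Eb1, and reads were counted by strand.

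Both 2.5-month-old livers lay below the other 6 for H2-Aa and for H2-Eb1, a pattern noticed after the values were seen. For H2-Aa they stood at 91.6 and 93.6 against 209 for the lowest of the others, and for H2-Eb1 at 168 and 191 against 225. The same order held for 1329 of all 11174 genes (11.9%), and for none of the other 5 members. With 1 such mouse per genotype, age cannot be told apart from other differences between those animals.

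H2-DMa encodes the α chain of the peptide-exchange heterodimer H2-DM (chr17:34119541-34139101, plus strand). Its levels were 69.0, 59.9, 73.6 and 59.8 in Rragc+/+. In Rragc S74N/+ they were 42.2, 35.6, 56.8 and 43.2. Every Rragc S74N/+ liver lay below every Rragc+/+ liver, a pattern that 183 of all tested genes (1.64%) shared. The means were 65.5 ± 6.87 and 44.5 ± 8.92, or 0.676 of the Rragc+/+ level, with a log2 fold change of -0.56 (SE 0.26, 95% interval -1.13 to 0.000242). The exact permutation p was 0.0286, the smallest that 4 against 4 livers can give, but the unadjusted limma p was 0.0501 and the adjusted one 0.846. Counting was shallow, with 40 to 74 reads per liver, and the variance between livers of a genotype was 1.13 times that expected from counting. The gene model CR974462.3 lies inside H2-DMa on the same strand, at chr17:34120568-34121158. That is nearer the start of H2-DMa than the 3′ end that the method reads, and its effect on the count was not tested.

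Markers of the cells that could carry these transcripts are given beside H2-DMa. The 7 dendritic cell markers listed, of 11 sought, summed to 115 to 191 normalized counts in Rragc+/+ and 169 to 249.7 in Rragc S74N/+ livers. Of these, 4 were tested and all 4 were higher in Rragc S74N/+ livers, with a median log2 fold change of 0.59. Irf8, at 0.77, was the 1 with an unadjusted limma p under 0.05 (0.0132). The 8 B cell markers listed, of 9 sought, summed to 33.7 to 70.7 and 40.1 to 79.9. The Kupffer cell list summed to 3395 to 5396 and 3347 to 5302, with 6 of its 11 genes higher and 5 lower in Rragc S74N/+ livers. Within it the log2 fold change was 1.03 for C1qc, 0.80 for Adgre1 and -0.91 for Fcna, each with an unadjusted limma p under 0.05. The monocyte and macrophage list, of which all 6 genes were listed and 5 tested, summed to 173 to 276 in Rragc+/+ and 217 to 543 in Rragc S74N/+ livers. Of the 5 tested, 4 were higher, 2 of them (Lyz2 and Plac8) with an unadjusted limma p under 0.05, and the median log2 fold change was 0.74. The pan-leukocyte list ran from 178 to 245 in Rragc+/+ and from 224 to 356 in Rragc S74N/+ livers. Sinusoidal endothelium markers summed to 556 to 831 in Rragc+/+ and 573 to 731 in Rragc S74N/+ livers. Among these 4 genes, all tested, 3 were lower in Rragc S74N/+ livers and 1 higher, with a median log2 fold change of -0.18. Lyve1 was the higher one, with a log2 fold change of 1.03 (exact permutation p = 0.0571). Plasmacytoid dendritic cell markers summed to 382 to 547 and 414 to 556, and Tcf4, the 1 tested, had a log2 fold change of 0.14. The sum of the plasma cell list, led by the immunoglobulin light chain gene Igkc, did not overlap, at 76.7 to 115 against 169 to 249.6. Within the list only Igkc did not overlap, while Ighm, Jchain and Mzb1 did. Jchain (means 6.21 in Rragc+/+ and 11.2 in Rragc S74N/+) and Mzb1 (6.22 and 5.83) fell under the filter. The log2 fold change of Igkc was 1.31, with an adjusted p of 0.846 by limma, 0.812 by edgeR and 0.0324 by DESeq2. No marker of these lists was at 0 in all 8 livers, and none passed the adjusted threshold by limma or edgeR. Of all single genes tested, 5.17% had an unadjusted limma p under 0.05. The genotypes did not overlap for 2.94% of them, and 51.3% were higher in Rragc S74N/+ livers. Defining genes of dendritic cells (Itgax, Xcr1, Clec9a) and of B cells (Cd79a, Ms4a1) fell under the filter on low values. The part of cell composition in the values of the members was not tested.

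H2-DMb1 encodes the β chain of H2-DM (chr17:34153072-34160230, plus strand). It was counted at 32.6, 37.4, 25.5 and 15.9 in Rragc+/+ and at 34.0, 24.0, 31.2 and 26.1 in Rragc S74N/+, and all Rragc S74N/+ values lay within the Rragc+/+ range. The means were 27.8 ± 9.36 and 28.8 ± 4.58 (log2 fold change 0.10, SE 0.36, 95% interval -0.67 to 0.87; limma adjusted p = 0.959; exact permutation p = 0.800). The ratio of H2-DMa to H2-DMb1 was 2.11, 1.6, 2.89 and 3.76 in Rragc+/+ and 1.24, 1.48, 1.82 and 1.66 in Rragc S74N/+ livers, with overlap. H2-DMb1 has a near-identical neighbour, H2-DMb2, and its counts of 17 to 40 reads are uncertain where the counting could split reads between them.

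Cd74, the invariant chain (chromosome 18, GRCm38), was found at 729, 421, 506 and 475 in Rragc+/+ and at 269.9, 525, 601 and 350.0 in Rragc S74N/+. The highest liver was Rragc+/+ and the 2 lowest were Rragc S74N/+, with the others mixed. The means were 533 ± 136 and 436 ± 153 (log2 fold change -0.33, SE 0.27, 95% interval -0.92 to 0.26; limma adjusted p = 0.846; exact permutation p = 0.371). The log2 fold change was -0.12 without Rragc S74N/+ replicate 1, -0.16 without Rragc+/+ replicate 1 and -0.50 without Rragc S74N/+ replicate 3.

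Ciita, the coactivator (chr16:10480059-10528418, plus strand), was close to the filter. It was counted at 14.0, 7.48, 19.8 and 16.8 in Rragc+/+ and at 10.1, 12.4, 12.3 and 18.8 in Rragc S74N/+, from 8 to 23 reads. The means of 14.5 ± 5.26 and 13.4 ± 3.74 differed by a log2 fold change of -0.07 (SE 0.48, 95% interval -1.10 to 0.97; limma adjusted p = 0.981; exact permutation p = 0.800).

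**Figure D2:**
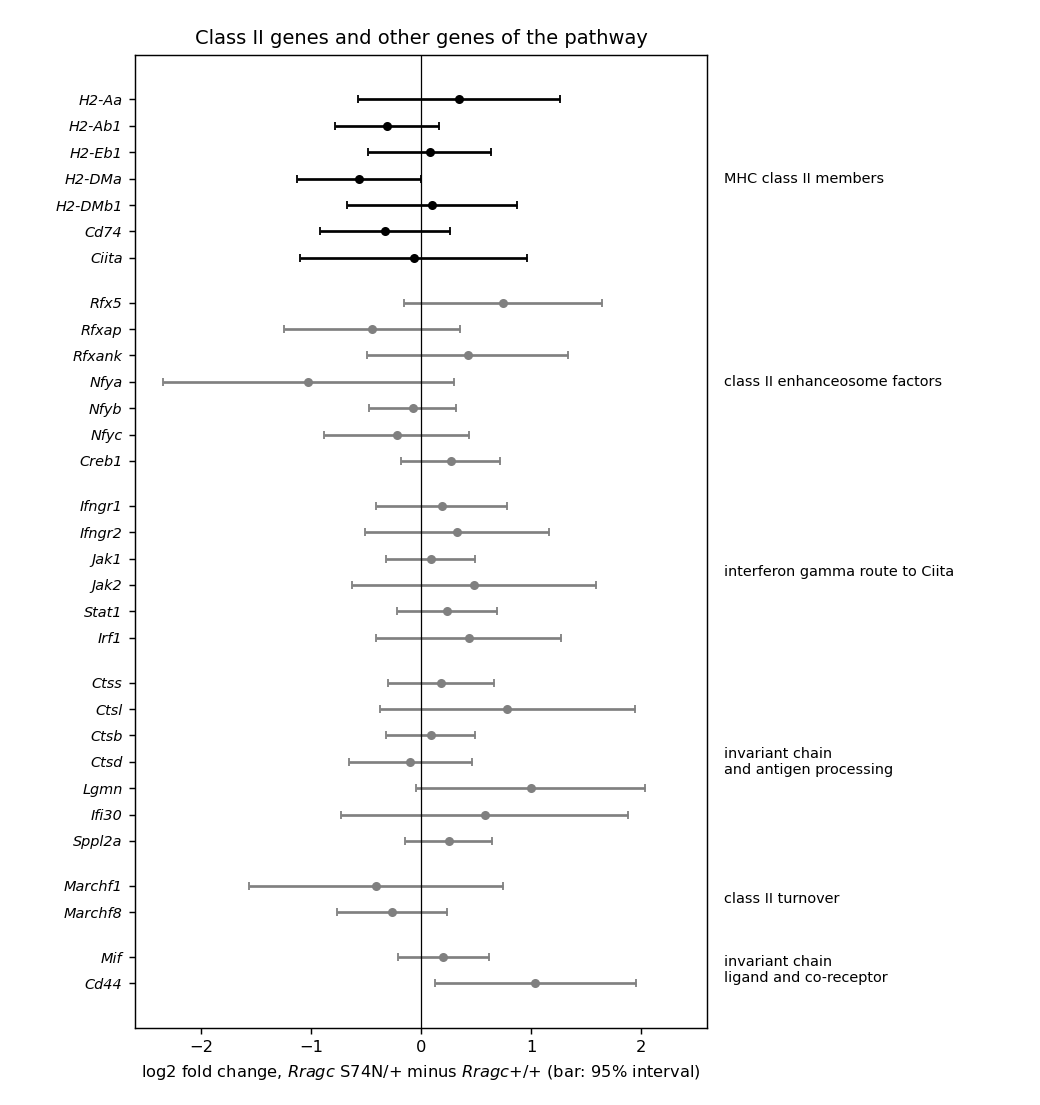
Log2 fold change of Rragc S74N/+ over Rragc+/+ livers, with its 95% interval from limma (n = 4 livers per genotype), for the 7 members in black and the 24 other pathway genes tested in grey, grouped by role, with a line at 0. All 7 member intervals include 0, that of H2-DMa with an upper end of 0.000242, and of the grey intervals only that of Cd44, centred on 1.04, leaves it out.

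Across the livers most pairs of members were weakly related. Of the 21 pairs, 13 had a positive and 8 a negative Pearson r over the 8 livers on the log2 scale, with a median r of 0.17. H2-Aa and H2-Eb1 had the highest, r = 0.77 (exact permutation p = 0.0267, adjusted over the 21 pairs 0.561; Spearman rho 0.64, exact permutation p = 0.0962). Without the 2 livers farthest from the median of H2-Aa, which were the 2.5-month-old mice, r was 0.14, so the relation rested on those livers. H2-Aa and H2-Ab1, whose products pair in 1 molecule, gave r = 0.39 (exact permutation p = 0.352), and H2-DMa and H2-DMb1, likewise partners, gave r = 0.04 (exact permutation p = 0.936). H2-Aa and Cd74 ran in opposite directions without passing the test (r = -0.41, exact permutation p = 0.320). H2-Ab1 and Ciita had a Spearman rho of 0.79 (exact permutation p = 0.0279, adjusted 0.586) but r = 0.51 (exact permutation p = 0.200). No pair passed after adjustment.

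The balance between members also differed from liver to liver. The ratio of H2-Aa to H2-Ab1 was 0.551, 0.861, 0.789 and 0.339 in Rragc+/+ and 1.11, 1.07, 0.459 and 1.43 in Rragc S74N/+. It exceeded 1 in 3 Rragc S74N/+ livers and in no Rragc+/+ liver, while the 2.5-month-old mouse had the lowest ratio of each genotype. The ratio of Cd74 to the sum of H2-Aa, H2-Ab1 and H2-Eb1 was 0.805, 0.591, 0.605 and 0.860 in Rragc+/+ and 0.360, 0.571, 1.29 and 0.363 in Rragc S74N/+ livers. The 2.5-month-old mouse here had the highest ratio of each genotype. These ratios were formed after the levels had been seen and were not tested.

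**Figure D3:**
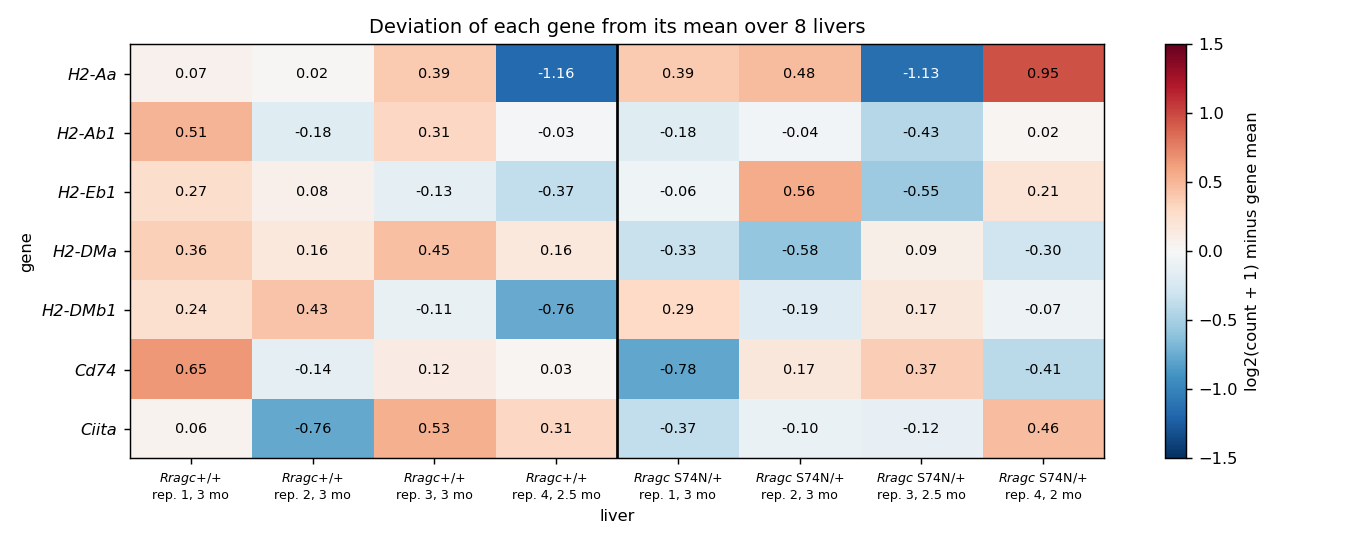
Deviation of each member's log2 level from its mean over the 8 livers, with genes in rows and livers in columns. H2-Aa reaches -1.16 and -1.13 in the 2.5-month-old mice and 0.95 in Rragc S74N/+ replicate 4. Rragc+/+ replicate 1 is above the mean for all 7 genes, and each of the other 7 livers has genes on both sides of it.

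The genes whose profile was most like the mean log2 level of H2-Aa, H2-Ab1, H2-Eb1 and Cd74 over the 8 livers were not of the pathway. Cyp2b10, a drug-inducible cytochrome P450, came first with r = 0.95, followed by Fam83f with r = 0.91. Lonrf3, the prostaglandin synthase gene Ptgs1, AC163032.1 and the galectin gene Lgals9 each had r = 0.90, while Trmt6 and Ythdc2 had 0.89 and Smarcal1 and the transcription factor gene Runx1 had 0.88. Of the pathway and marker genes, the RFX subunit gene Rfxank ranked 159 with r = 0.73. Without both 2.5-month-old mice r was 0.93 for Cyp2b10, 0.88 for AC163032.1 and 0.85 for Lgals9, but 0.76 for Fam83f and Lonrf3, 0.71 for Smarcal1, 0.65 for Ptgs1, 0.61 for Trmt6 and Ythdc2 and 0.59 for Runx1. These values rest on 8 livers shared by all genes and are a description.

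Around the members, 32 further pathway genes were sought, of which 28 were listed and 24 tested. Of these 24 genes 17 had a positive and 7 a negative log2 fold change, with a median of 0.22, while 51.3% of all genes tested were higher. By limma 1 of 24 had an unadjusted p under 0.05 and 0 of 24 passed after adjustment, beside 5.17% and 0.00895% of all genes. The 1 gene was Cd44, which forms a receptor complex with Cd74 for the cytokine Mif. Its levels were 14.9, 17.8, 34.0 and 16.8 in Rragc+/+ and 46.8, 37.3, 22.3 and 76.7 in Rragc S74N/+. A single Rragc S74N/+ liver, the 2.5-month-old one, lay within the Rragc+/+ range. The means were 20.9 ± 8.81 and 45.8 ± 22.9 (log2 fold change 1.04, unadjusted limma p = 0.0286, adjusted p = 0.846; exact permutation p = 0.0571).

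The genes that act on the class II promoters did not move in 1 direction. Of the 7 tested, the RFX and NF-Y subunits and Creb1, 3 had a higher and 4 a lower mean log2 level in Rragc S74N/+ livers (median -0.08). Rfx5, the large RFX subunit, was at 24.2, 26.2, 56.6 and 17.8 in Rragc+/+ and at 61.5, 64.0, 24.5 and 55.5 in Rragc S74N/+, with overlap. Its log2 fold change was 0.75 (SE 0.42; limma adjusted p = 0.846; exact permutation p = 0.171). The 6 genes that relay interferon-γ, the classical inducer of Ciita, all had positive log2 fold changes, from 0.08 to 0.48. Of all genes tested, 51.3% were higher. None of the 6 had an unadjusted limma p under 0.05, and all 6 overlapped between genotypes (exact permutation p from 0.171 to 0.571).

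Among the 7 genes that process antigen in the endosome 6 had a positive log2 fold change and 1 a negative one (median 0.25). The share higher over all genes tested was 51.3%. Ctss, the cathepsin that trims the invariant chain, was at 347 ± 52.5 and 398 ± 94.2 (log2 fold change 0.18, limma adjusted p = 0.874). Ifi30, a thiol reductase of the endosome, was at 57.0 ± 31.4 and 91.6 ± 64.4 (log2 fold change 0.58, limma adjusted p = 0.854). Lgmn, an asparaginyl endopeptidase named after its values were seen, was at 20.7 ± 9.13 and 44.9 ± 23.8 (log2 fold change 0.99, limma adjusted p = 0.846). None of these differences passed after adjustment by limma, edgeR or DESeq2. The unadjusted p of Lgmn was 0.0603 by limma, 0.0328 by edgeR and 0.0231 by DESeq2. Its levels overlapped between genotypes, with an exact permutation p of 0.171. Of the other class II chains, H2-DMb2 was at 7.25 ± 1.15 and 5.07 ± 3.66 and H2-Oa at 6.34 ± 7.45 and 6.26 ± 4.33, both below the filter. H2-Ea, H2-Eb2 and H2-Ob were not among the genes listed, so they have no level here.

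**Figure D4:**
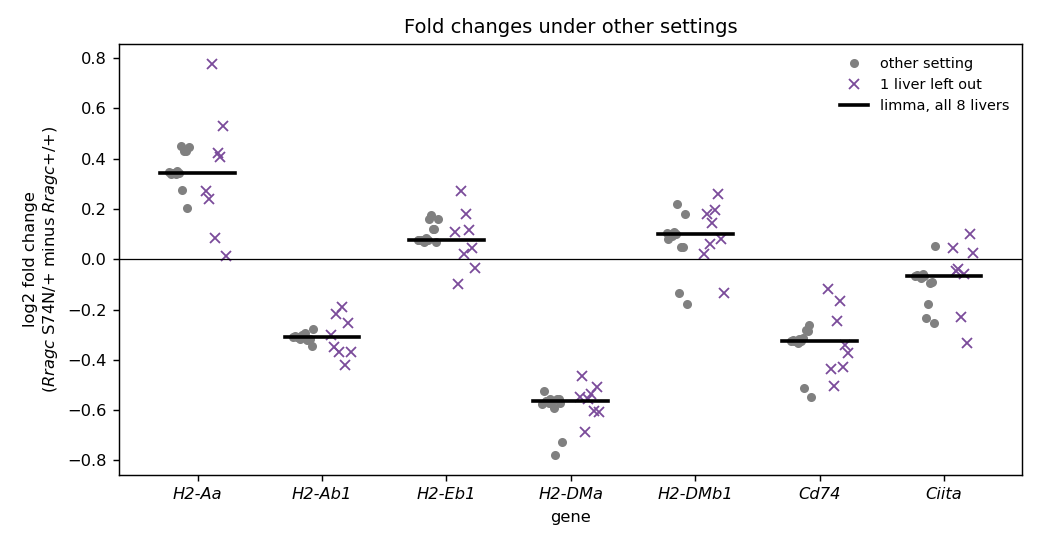
Log2 fold change of each member, Rragc S74N/+ over Rragc+/+, in the main comparison and under each alternative processing and each omission of 1 liver. H2-DMa stays below 0 throughout, from -0.78 to -0.47, while H2-Eb1, H2-DMb1 and Ciita fall on both sides of 0.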

How the data were processed

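Total RNA of 8 livers was sequenced with a stranded 3′ end kit (QuantSeq). Reads were aligned by the authors to GRCm38 using TopHat2 2.0.10, Bowtie 1.0.0 and SAMtools 0.1.19, checked with FastQC 0.11.7 and counted by strand with HTSeq 0.6.1. The deposited signal values are gene counts divided by DESeq size factors. Dividing by the step of each column returned whole reads, within 0.01 of a read, for 100% of values. The values were tested as log2(value + 1) with limma 3.58.1 with a mean-variance trend (R 4.3.3) on 11174 genes with a mean of at least 10, genotype as the only term, Benjamini-Hochberg adjustment at 0.05. On the recovered reads edgeR 4.0.16 called 1 gene and DESeq2 1.42.0 called 10. Single genes also had two-sided exact permutation tests (Python 3.11.15, SciPy 1.17.1). The fitting was tested on simulated data. Coordinates are from GENCODE M21. By rule the genes named are the 7 members in full, pathway genes with an unadjusted p under 0.05 or without overlap, Rfx5, Ctss, Ifi30, Rragc, and the 10 genes most like the mean of 4 members. Other genes named (Lgmn, H2-DMb2, H2-Oa, Rfxank, the cell markers and the neighbours of the members) were chosen after their values were seen. Members and lists were chosen with earlier results of these data known. Alternatives were the pseudocount, filter, scaling, trend, tool, age and omission of each liver; those on age as a factor and without both 2.5-month-old mice were added after seeing the data.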

Additional observations from a re-analysis of the deposited data

Results flagged for a closer look

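Rfx5, a subunit of the RFX complex that binds class II promoters, had 1 Rragc S74N/+ liver far from the other 3. Replicate 3, from a 2.5-month-old mouse, had a log2 level of 4.67, while the other 3 lay between 5.82 and 6.02. Dixon's test at the 95% level was applied to 24 groups, of which chance alone would mark about 1.2, or 1 in 20. No cause was tested.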

How the results depend on the processing

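The number of genes past an adjusted p of 0.05, 1 in the main comparison, was 0 by limma without the trend, with age as a covariate, in 3-month-old mice alone and without both 2.5-month-old mice, 3 with age as a factor, 10 by DESeq2, and 0 to 2 when each liver was left out in turn. No member passed the adjusted threshold under any alternative run. The number of members with an unadjusted p under 0.05, 0 in the main comparison, was 1 (H2-DMa) with a pseudocount of 0.1, upper-quartile scaling, limma without the trend, 3-month-old mice alone or without both 2.5-month-old mice, and 0 to 2 with 1 liver left out; the 2 were H2-Aa and H2-DMa without Rragc S74N/+ replicate 3. The smallest adjusted p of H2-DMa was 0.282. The exact permutation test counted 1 member in the main comparison, and 0 in 3-month-old mice alone and with any liver left out, where the smallest p it can give is 0.200 and 0.0571, so it could not pass. The log2 fold change of H2-DMb1 turned to -0.13 in 3-month-old mice alone and -0.18 without both 2.5-month-old mice, and that of Ciita to 0.052 without both. With 1 liver left out, H2-Eb1 ran from -0.097 to 0.27, H2-DMb1 from -0.13 to 0.26 and Ciita from -0.33 to 0.099. H2-Aa, H2-Ab1, H2-DMa and Cd74 kept their direction under every alternative run, but with 1 liver left out H2-Aa ran from 0.014 to 0.78, H2-Ab1 from -0.42 to -0.19, H2-DMa from -0.69 to -0.47 and Cd74 from -0.50 to -0.12, and Cd74 was at -0.51 in 3-month-old mice alone and -0.55 without both 2.5-month-old mice. The causes were not tested. H2-DMb1 and Ciita have no value under the filter of 50. No paired analysis was possible because the numbers given to replicates only name the mice and match none across genotypes. Ciita and H2-DMb1, at 8 to 40 reads per liver, are limited by depth.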

Other observations

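Between the outer ends of H2-DMa and H2-Eb1 GENCODE places 17 genes, of which 10 were listed and 9 tested. These neighbours were looked at after the values were known. The 4 tested genes there that are not members are all of the class I peptide supply route. Psmb9 had a log2 fold change of 0.96 (limma unadjusted p = 0.0229) and Tap2 one of 2.29 (limma unadjusted p = 0.0219). Tap2 was close to the filter, with a mean of 15.8 normalized counts. Tap1 was at -0.20 (limma unadjusted p = 0.414) and Psmb8 at 0.28 (limma unadjusted p = 0.463). Over all genes tested 5.17% had an unadjusted limma p under 0.05. None of these 4 passed after adjustment. H2-DMa was the only 1 of the 9 without overlap between genotypes, beside 2.94% of all genes tested.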
